A study of Homo sapiens with 8 samples.

Results

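The genes described here are 9 matrix proteases, plasminogen activators and protease inhibitors, namely the inhibitors TIMP1, TIMP2 and TIMP3, the matrix metalloproteinases MMP2, MMP9, MMP14 and MMP15, and the plasminogen activators PLAU and PLAT. They were taken by gene symbol from a table of 47591 genes. The set was chosen by what earlier results had shown of the normalized counts and fold changes of such genes in these same libraries, so their own differences are given as a description and without p-values. All 9 were found in the table. All 9 also averaged 10 or more normalized counts across the 8 libraries, which was the condition for entering the fit, as it was for 18947 genes in all. The libraries came from SH-SY5Y, an established human neuroblastoma cell line, as poly(A)-selected RNA-seq of 3 lines. The G2 line (3 libraries) carries CRISPR/Cas9 editing with a guide against PRPF40B, which encodes a pre-mRNA splicing factor, and was labelled as silenced for it. After editing, individual colonies were grown by limiting dilution, so the line may descend from few cells. The scramble line (SCR, 3 libraries) received the same CRISPR/Cas9 machinery with a control guide, and the WT line (2 libraries) was not edited. G2 and SCR were kept in puromycin while WT was not, so in G2/WT and SCR/WT the drug and the CRISPR machinery cannot be told apart from the line. Each condition is 1 line, so the edit and the line's own descent cannot be told apart either, and the spread given below is that between the biological replicates of a line.

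Matrix metalloproteinases are zinc enzymes that cut collagens, gelatin, laminin and other proteins of the matrix and the cell surface. They are made as inactive precursors and blocked by the tissue inhibitors of metalloproteinases, the TIMPs, which bind the active site. A second system feeds into the first, because the serine proteases urokinase (PLAU) and tissue plasminogen activator (PLAT) turn plasminogen into plasmin, which degrades fibrin and matrix and can activate metalloproteinase precursors. In the nervous system both systems are known for their part in neurite outgrowth, cell migration and synaptic remodelling, and in neuroblastoma for invasion.

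Recovered count totals ran from 59804395 to 81080747 per library, or 19934798 to 27026916 when divided by 3, which was taken as fragments. PRPF40B was at 840.2 to 918 normalized counts in G2, 1669 to 1686 in SCR and 1668 to 1972 in WT, so the G2 libraries lay below all controls. The share of ribosomal RNA was 4.96% and 4.75% in WT and 0.38% to 0.59% elsewhere. Of 10 markers of adrenergic neuroblastoma cells, 9 were above the floor of detection in G2 and 10 in both controls, with TH, the enzyme that starts catecholamine synthesis, at or near the floor in G2. Their summed normalized counts were 98204 to 108159 in G2, 192728 to 208037 in SCR and 213202 to 226583 in WT. GATA3 went the other way, with 17343 to 19075 in G2 and 13417 to 15178 in the controls. Of 10 markers of mesenchymal-type neuroblastoma cells, 9, 7 and 7 were above the floor, and their sum was 238368 to 243570 in G2, 111278 to 118508 in SCR and 81336 to 93171 in WT, with FN1 at or near 0 in all 3 lines and PRRX1 at 0 in the controls. VIM made up most of that sum, at 211955 to 216529 in G2, 82625 to 88286 in SCR and 54583 to 63778 in WT. Without VIM the other 9 summed to 26412 to 27041, 28653 to 30222 and 26753 to 29392, mostly TWIST1, which lay lower in every G2 library than in the controls. FOSL1, SNAI2, NOTCH2, CD44, YAP1, WWTR1 and PRRX1 each lay higher in every G2 library than in the controls. The 5 markers of blood cells summed to 703 to 775 in G2, mostly CD68, and to 98.0 to 140.0 in the controls, with PTPRC and AIF1 at or near 0. The 5 endothelial markers summed to 17.5 to 63.0 in G2, 15.1 to 32.7 in SCR and 0 to 35.7 in WT, with PECAM1 at 0 throughout and VWF at 17.5 to 59.3 in G2 and 0 to 6.80 in the controls. The 5 epithelial markers summed to 126 to 135, 142 to 149.6 and 116 to 155, with KRT5 and KRT14 at 0 throughout. KRT19 averaged 40.1, 26.0 and 10.4 in G2, SCR and WT, and EPCAM 41.9, 68.2 and 40.8. The part of these markers in the differences below was not tested. In bulk RNA a change in the share of cells of a type and a change in RNA per cell cannot be told apart.

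In G2/SCR, 7 of the 9 genes passed the thresholds for differential expression (DE), namely a change of 1.5-fold or more and an unadjusted p in limma no larger than 0.05. Of these, 6 were higher and 1 lower. Of all genes tested, 26.9% passed, 15.1% higher and 11.8% lower. TIMP1, TIMP2, TIMP3, MMP9, PLAU and PLAT were the higher ones, and MMP2 the lower one. MMP9 is counted here although its SCR mean of 2.82 lay under the level required for the fit. The median log2 fold change of the 9 genes was 1.26, against -0.01 for all genes. Without SCR replicate 3 only 4 of these calls were left, those of TIMP1, TIMP2, PLAU and PLAT. In G2/WT, 5 of the 9 were called, all of them higher (17.7% of all genes were called higher, and 29.9% in either direction), and the median was 1.09 against 0.00 for all genes. SCR/WT gave 2 higher and 2 lower calls among the 9, with a background of 16.3% of genes, 10.7% higher and 5.63% lower. TIMP1, TIMP2, PLAU and PLAT were called higher in both G2 comparisons, and 17.7% of all genes tested were called in both in the same direction. The G2 libraries lay above all 5 control libraries for 4 of the 9 genes (22.8% of all genes) and below all of them for MMP2 alone (19.7% of all genes). Because the genes were picked with these values known, nothing is read from these shares.

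**Figure D1:**
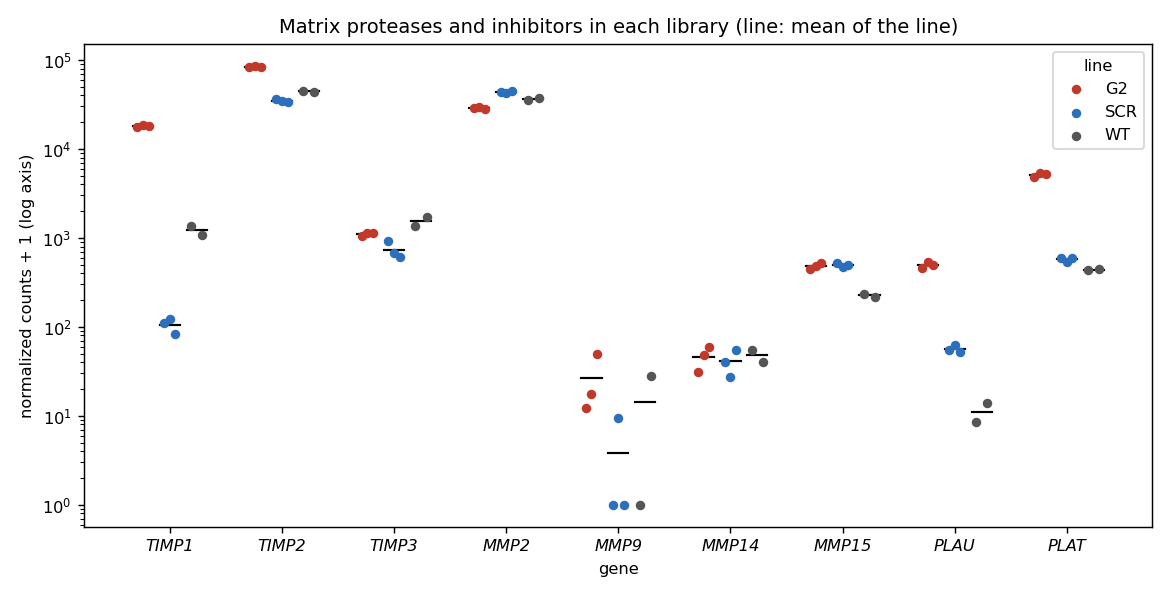
Normalized counts plus 1 (log axis) of the 9 genes in each library, with red points for G2, blue for SCR and grey for WT, and a black line at the mean of each line. TIMP1, TIMP2, PLAU and PLAT have all G2 points above all control points, MMP2 has them below, and MMP14 has the 3 lines intermingled.

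**Figure D2:**
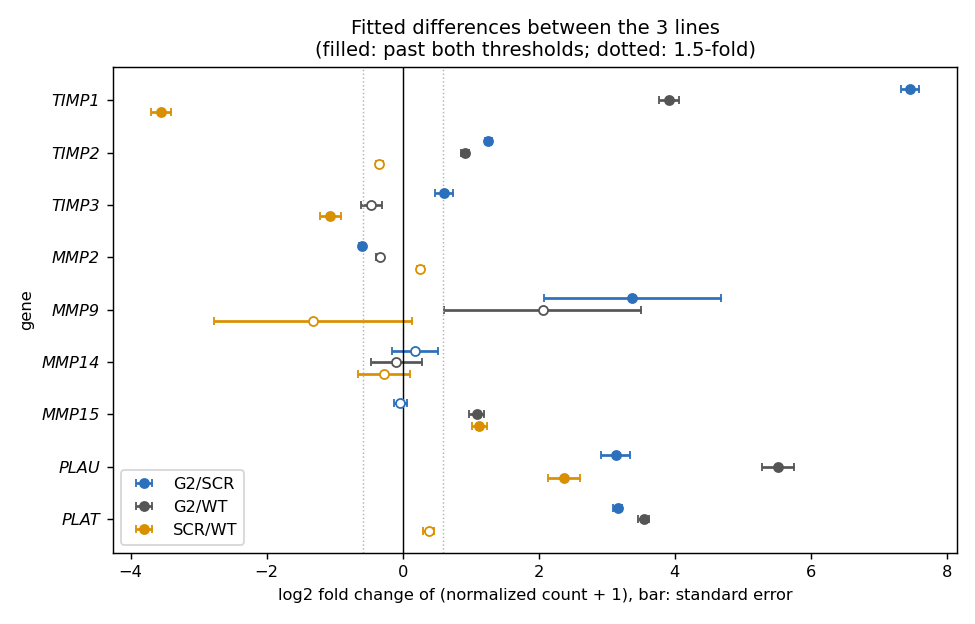
Fitted log2 fold changes of the 9 genes (x axis, on the scale of normalized count plus 1) in G2/SCR, G2/WT and SCR/WT, with bars for the standard error, filled points past both thresholds and dotted lines at a fold change of 1.5. TIMP1 spans the widest range, from -3.55 in SCR/WT to 7.46 in G2/SCR, and the wide bars belong to MMP9, whose counts are few.

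Of the 9 genes, TIMP1 differed most between the lines. It encodes a secreted inhibitor of most metalloproteinases and lies on chrX:47582313-47586789 of hg38, on the plus strand (GSHG0045689). Its normalized counts were 17813, 18648 and 18220.3 in the G2 libraries, 108, 122 and 81.6 in SCR, and 1372 and 1071 in WT. The lines did not overlap, with SCR lowest, WT between and G2 highest. Non-overlap was common, since libraries of the compared lines were apart for 61.8% of all genes in G2/SCR, 65.4% in G2/WT and 55.3% in SCR/WT, and for 7 of the 9 genes described here in each. The means were 18227 ± 417 (SD, n = 3), 104 ± 20.5 (SD, n = 3) and 1222 ± 213 (SD, n = 2), so that G2 was 175-fold above SCR and 14.9-fold above WT, while WT was 11.8-fold above SCR. The fitted log2 fold changes were 7.46 in G2/SCR (standard error 0.13), 3.91 in G2/WT (0.15) and -3.55 in SCR/WT (0.15). All 3 passed the thresholds under every alternative run. TIMP1 lies within SYN1, the gene of a synaptic vesicle protein, on the opposite strand, and the strand setting of the counting is not given in the sources used here. SYN1 went the other way, with 477 to 505 normalized counts in G2, 1599 to 1674 in SCR and 1347 to 1420.4 in WT.

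TIMP2 was, per kilobase of exon, the most abundant of the 3 inhibitors in every line. Besides blocking metalloproteinases, its protein joins MMP14 and the MMP2 precursor in the complex that activates MMP2 at the cell surface. The gene is on chr17:78852977-78925390, minus strand. It was at 82482, 85578 and 82823 normalized counts in G2, at 36453, 34722 and 33710.2 in SCR and at 44772 and 43906 in WT. The 3 lines again kept apart in the order SCR, WT, G2, with means of 34962 ± 1387 (SD, n = 3), 44339 ± 613 (SD, n = 2) and 83628 ± 1698 (SD, n = 3). G2 was 2.39-fold above SCR and 1.89-fold above WT (log2 fold changes 1.26 and 0.92, standard errors 0.05 and 0.05). SCR/WT, at -0.34, stayed under the fold threshold.

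TIMP3, an inhibitor held in the matrix, did not follow the other inhibitors. Its normalized counts were 1051, 1143 and 1128 in G2, 925, 679 and 613 in SCR, and 1365 and 1702 in WT (chr22:32801705-32863041, plus strand). SCR was lowest and WT highest, and the G2 libraries lay between them without overlap. On the log2 scale G2/SCR was at 0.61 (standard error 0.14), G2/WT at -0.46 (0.15, not called) and SCR/WT at -1.07 (0.15, called lower). The call in G2/SCR sits at the threshold, and was lost without SCR replicate 3 (0.48), SCR replicate 2 (0.56) or G2 replicate 2 (0.58), with libraries scaled to the same total (0.51) and with DESeq2 (0.58). In G2/WT the call was made without WT replicate 1 (-0.62). TIMP3 lies within SYN3 on the opposite strand, and SYN3 was at 120.4 to 191 normalized counts in G2, 62.0 to 80.6 in SCR and 57.1 to 81.4 in WT.

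The 250 bases before the RefSeq starts (GRCh38.p14) were searched for the genes found in the promoter table, TIMP1, TIMP3, MMP14, MMP15 and PLAU, in 6 windows since PLAU has a pair of starts. TIMP2, MMP2, MMP9 and PLAT were not matched. The motifs were the GC box (GGGCGG), the AP-1 site (TGANTCA) and the TATA box (TATAAA), on both strands. All 5 genes had at least 1 GC box, a motif that 42.6% of 35116 promoters of this length hold, and 0 had an AP-1 site (6.57% of promoters) or a TATA box (10.7%). No matches overlapped each other. The stretches below show the inhibitor and the activator with the widest range between lines beside the inhibitor that differed least in G2/SCR, up to the exon that follows, with capitals marking the GC boxes on either strand. They are chrX:47582186-47582312 for TIMP1, chr22:32801455-32801704 for TIMP3 and chr10:73910882-73911103 for PLAU, all on the plus strand. The stretch of PLAU precedes the later of its starts and also lies in an exon of C10orf55, an antisense RNA.
TIMP1: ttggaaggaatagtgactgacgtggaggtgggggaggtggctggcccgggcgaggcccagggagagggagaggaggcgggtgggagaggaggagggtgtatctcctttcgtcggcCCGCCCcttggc
TIMP3: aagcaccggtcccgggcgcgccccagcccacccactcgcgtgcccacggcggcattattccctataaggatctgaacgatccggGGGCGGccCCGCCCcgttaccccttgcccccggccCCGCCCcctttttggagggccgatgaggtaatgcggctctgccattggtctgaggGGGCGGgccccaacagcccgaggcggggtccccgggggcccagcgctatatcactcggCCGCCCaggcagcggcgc
PLAU: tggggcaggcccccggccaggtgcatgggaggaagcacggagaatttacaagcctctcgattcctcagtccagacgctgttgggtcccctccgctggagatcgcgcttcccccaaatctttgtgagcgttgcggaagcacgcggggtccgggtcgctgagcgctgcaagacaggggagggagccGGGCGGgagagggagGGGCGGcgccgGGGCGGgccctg
The part of TIMP1 shown holds 1 of the 2 GC boxes in its window, that of TIMP3 holds 5 and that of PLAU 3. Such letters are a description of the sequence and were not tied to the differences in counts.

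Among the metalloproteinases, MMP2 alone was abundant. MMP2 is gelatinase A, an enzyme for gelatin and for the type IV collagen of basement membranes, on chr16:55389699-55506691, plus strand. It had 29101, 29375 and 28164 normalized counts in G2, 43466, 42590.3 and 45188 in SCR, and 35814 and 37318 in WT. The order was G2, WT, SCR, the reverse of that of TIMP1 and TIMP2, and no libraries of different lines overlapped. SCR was 1.51-fold above G2, or -0.60 for G2/SCR in log2 (standard error 0.05), just past the threshold. Without G2 replicate 3 or SCR replicate 3 it was -0.58 and was no longer called. G2/WT and SCR/WT, at -0.34 and 0.26 (standard errors 0.05), were not called.

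MMP15, a metalloproteinase anchored in the cell membrane, differed between WT and the other lines. Its normalized counts were 444, 477 and 523 in G2, 519, 468 and 491 in SCR, and 233 and 218 in WT (chr16:58025559-58046901, plus strand). G2 and SCR overlapped and both lay above WT, by 2.13-fold and 2.18-fold. The log2 fold changes were -0.04 in G2/SCR (standard error 0.10, not called), 1.09 in G2/WT (0.11) and 1.12 in SCR/WT (0.11).

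MMP14, the membrane-anchored enzyme that activates the MMP2 precursor, was low in all lines. It had 30.1, 47.1 and 58.0 normalized counts in G2, 39.8, 26.3 and 53.7 in SCR, and 54.6 and 39.7 in WT (chr14:22836584-22847761, plus strand). The libraries overlapped in every comparison, and the log2 fold changes of 0.18, -0.10 and -0.28 in G2/SCR, G2/WT and SCR/WT were within their standard errors of 0.34, 0.38 and 0.38.

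MMP9, gelatinase B, was close to the limit of detection (chr20:46008908-46016561, plus strand). The libraries held 11.3, 16.4 and 48.4 normalized counts in G2, 0, 8.45 and 0 in SCR, and 0 and 26.8 in WT. Each G2 library was above each SCR library, while G2 and WT overlapped. The means were 25.4 in G2, 2.82 in SCR and 13.4 in WT. Of the lines compared in G2/SCR, only G2 thus averaged the level required for entering the fit. The higher call of MMP9 therefore rests on a filter passed through the line in which it was higher. SCR was at the floor, taken as at most 9 recovered counts in every library, which corresponds to about 3 fragments. The fitted log2 fold change in G2/SCR was 3.38 (standard error 1.30), a value that depends on the pseudocount of 1 and fell to 1.38 with a pseudocount of 10. The call was lost with DESeq2 and without G2 replicate 3, SCR replicate 1 or SCR replicate 3. G2/WT became a call without WT replicate 2 (4.46), and SCR/WT without WT replicate 1 (-3.72), so that single libraries set the outcome for this gene. SLC12A5-AS1, an RNA that overlaps MMP9 on the other strand, had 22.6 to 31.2 normalized counts in G2 and 58.6 to 70.3 in the controls.

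Both plasminogen activators were higher in G2 than in either control. PLAU (GSHG0004210, chr10:73911132-73917498, plus strand) had 460.1, 530.0 and 492 normalized counts in G2, 54.1, 61.0 and 51.4 in SCR, and 7.45 and 12.9 in WT. The lines were apart from each other in the order WT, SCR, G2. The means of 494 ± 35.0 (SD, n = 3) for G2, 55.5 ± 4.96 (SD, n = 3) for SCR and 10.2 ± 3.86 (SD, n = 2) for WT put G2 8.90-fold above SCR and 48.5-fold above WT, and SCR 5.45-fold above WT. The log2 fold changes were 3.13 (standard error 0.21), 5.51 (0.24) and 2.38 (0.24) in G2/SCR, G2/WT and SCR/WT, and all 3 were called. With a pseudocount of 10 they were 2.94, 4.65 and 1.71.

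PLAT, on chr8:42174718-42207676 (minus strand), was the more abundant of the pair per kilobase of exon. It was at 4884, 5322 and 5199 normalized counts in G2, 589.9, 542 and 590.3 in SCR, and 435 and 445 in WT. G2 stood apart from both controls, 8.95-fold above SCR and 11.7-fold above WT, while SCR was 1.31-fold above WT. The log2 fold changes were 3.16 (standard error 0.07), 3.54 (0.08) and 0.38 (0.08), the last not called, although it was called at 0.66 with libraries scaled to the same total. PLAT had neighbours that were higher too. The 41 genes within 5 Mb of it that averaged 100 or more had medians of 0.18 for G2/SCR and 0.14 for G2/WT on the log2 scale, with 9 of them called higher and 2 lower in each, against medians of 0.01 and -0.01 for all genes at that level. Among all genes tested, 15.1% were called higher and 11.8% lower in G2/SCR, and 17.7% and 12.2% in G2/WT. Those shares also take in genes averaging under 100, unlike the neighbours. Around the other 8 genes the medians ran from -0.06 to -0.01 in G2/SCR. The part of this in the level of PLAT was not tested.

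The levels were then put per kilobase of exon, which allows genes to be compared with each other within a line. In G2, TIMP1 was at 12605 ± 288 and TIMP2 at 13469 ± 273 normalized counts per kb (SD, n = 3), while in SCR they were at 71.9 ± 14.2 and 5631 ± 223. TIMP1 thus made up 47.9% of the summed TIMP1, TIMP2 and TIMP3 in G2, 1.22% in SCR and 10.1% in WT. MMP2 held 97.9%, 98.7% and 99.1% of the sum of the 4 metalloproteinases in G2, SCR and WT. The ratio of the inhibitor sum to the metalloproteinase sum was 4.10, 4.23 and 4.26 in the G2 libraries, 0.656, 0.635 and 0.577 in SCR, and 1.10 and 1.02 in WT. Each G2 library was above each control, and each WT library above each SCR library. The means were 4.20 ± 0.085 (SD, n = 3), 0.623 ± 0.041 (SD, n = 3) and 1.06 ± 0.056 (SD, n = 2). This is a ratio of RNA levels and says nothing of protein or of enzyme activity. The activators together were at 828 ± 40.5 normalized counts per kb in G2, 92.7 ± 2.04 in SCR and 60.04 ± 2.24 in WT, of which PLAU held 20.2%, 20.3% and 5.71%.

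**Figure D3:**
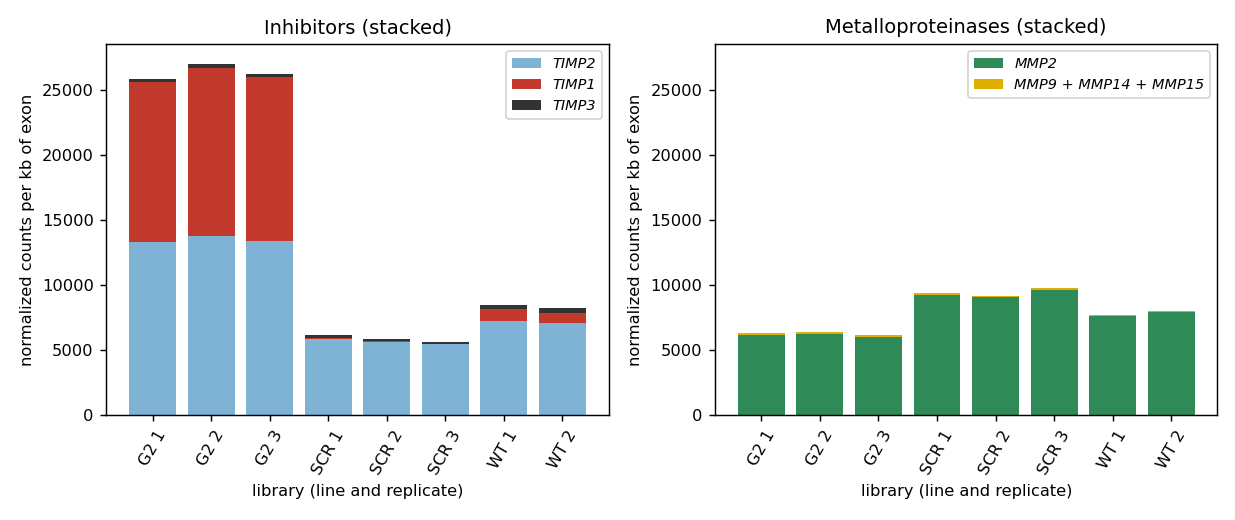
Normalized counts per kb of exon (y axis) of the inhibitors (left, TIMP2, TIMP1 and TIMP3 stacked) and of the metalloproteinases (right, MMP2 and the sum of MMP9, MMP14 and MMP15 stacked) in each library (x axis). In G2 the inhibitors stand at 25832 to 26928 and the metalloproteinases at 6142 to 6372, while in SCR they stand at 5619 to 6147 and 9170.2 to 9730 per kb, with MMP2 making up nearly the whole of the metalloproteinase bars.

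For each gene the genes most like it were sought by the correlation of log2 values over the 8 libraries, out of those averaging 100 or more. Since the libraries fall into 3 lines, such a value mostly describes the order and spacing of 3 means. TIMP1 was closest to PTDSS1 (r = 0.999, n = 8) and SSR3 (r = 0.998), TIMP2 to TXNDC5 (0.999), and TIMP3 to PBX3 (0.983) and KCTD15 (0.975). MMP2 was closest to UBE2O (0.995) and TFAP2B (0.994), and MMP15 to CCDC184 (0.996) and HSPA1B (0.995). For MMP9 and MMP14 the highest values were lower, 0.941 with KIF16B and 0.943 with HOOK2. PLAU was closest to NUAK1 and CAP2 (both 0.999), and PLAT to SPARC and ECM1, which encode secreted matrix proteins. SPARC had 27494 ± 244 normalized counts in G2, 4023 ± 177 in SCR and 3169.7 ± 9.14 in WT, and ECM1 had 2848 ± 88.0, 110.4 ± 19.5 and 65.0 ± 0.680.

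The wider protease network was followed with 83 further genes in lists written by role. Of these, 57 passed the filter on low values, and 16 of the 26 others were listed at 0 in all libraries. In G2/SCR, 32 of the 57 were called higher, 9 lower and 16 not called, and their median was 0.83 (log2). In G2/WT, 30 were higher and 10 lower (median 0.70), and in SCR/WT 10 were higher and 7 lower (median -0.04). Both G2 comparisons share the same G2 libraries, and 28 genes were higher and 9 lower in both. The shares called higher were 56.1%, 52.6% and 17.5% in G2/SCR, G2/WT and SCR/WT, against 15.1%, 17.7% and 10.7% of all genes, and those called lower 15.8%, 17.5% and 12.3%, against 11.8%, 12.2% and 5.63%. The medians of all genes were -0.01, 0.00 and 0.01. Some calls were of genes averaging under 10 in the lower line. Among those higher in G2/WT, FAP, ADAMTS5, ADAMTS10, ADAMTS12 and ADAMTS15 averaged 2.86, 8.56, 8.07, 9.81 and 7.82 in WT. ADAMTS16, higher in G2/SCR, averaged 5.22 in SCR. Such calls rest on a filter passed through lines in which the genes were higher. The SCR/WT calls of FAP (higher) and ADAMTS16 (lower) share this limit. As the lists were written with earlier results of these libraries known, the counts are a description. The adjusted p-values below are a description too, since many of the genes were named for how they ranked by p. They measure the spread between libraries of a line and cannot separate the edit from the line. Values below are means ± SD over 3 G2, 3 SCR and 2 WT libraries.

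Of 19 other metalloproteinases, 13 were too low to be tested, 7 of them listed at 0. Among the 6 tested, 3 were called higher and 2 lower in G2/SCR, all 5 also in G2/WT in the same direction. MMP11, a secreted enzyme, was at 1476 ± 51.1 normalized counts in G2, 650.2 ± 53.8 in SCR and 464 ± 54.4 in WT (log2 fold change in G2/SCR 1.18, adjusted p = 4.7e-07, limma with Benjamini-Hochberg adjustment over all genes). The membrane-bound enzymes were divided. MMP17 fell from 233 ± 21.4 in SCR and 219 ± 36.8 in WT to 48.9 ± 12.2 in G2 (log2 fold change -2.26, adjusted p = 1.8e-06), and MMP24 from 1772 ± 69.4 and 1714 ± 89.0 to 753 ± 65.5 (-1.24, adjusted p = 9.1e-08). MMP16 rose to 639.8, 647 and 756 normalized counts in G2 from 435, 366 and 415 in SCR (0.75, adjusted p = 0.0078). Its WT libraries were unlike each other, at 305 and 616, and the call in G2/WT was lost without WT replicate 1 (log2 fold change 0.14) or G2 replicate 3 (0.57). The 19 genes within 5 Mb of MMP16, also on chromosome 8, had a median log2 difference of 0.67 between G2 and SCR. Of them, 13 were called higher and 0 lower, against 15.1% and 11.8% of all genes tested. The part of this in MMP16 was not tested. MMP25 had 12.9 to 28.5 normalized counts in G2 and at most 8.16 in the controls, and was not tested.

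Of the 7 other inhibitors tested, 5 were called higher and 1 lower in G2/SCR, all of them also in G2/WT. TFPI2, a secreted inhibitor of plasmin and other serine proteases, reached 57273 normalized counts per kb of exon in G2, above TIMP1 and TIMP2, from 139975 ± 1593 normalized counts, against 44902 ± 2811 in SCR and 45131 ± 711 in WT (log2 fold change in G2/SCR 1.64, adjusted p = 2.4e-10). A2M, which traps proteases of all classes, was at 2159 ± 55.7, 77.7 ± 9.60 and 21.8 ± 11.2 (4.79, adjusted p = 4.4e-09). SERPINI1, or neuroserpin, a neuronal inhibitor of PLAT, was at 1032 ± 38.6, 405 ± 45.8 and 612 ± 39.4 (1.35, adjusted p = 2.4e-07). RECK, a membrane-anchored inhibitor of metalloproteinases, was at 396 ± 58.3, 221 ± 9.05 and 255 ± 24.5 (0.83, adjusted p = 0.00019), but its call in G2/WT was lost without G2 replicate 1, G2 replicate 3 or WT replicate 2, at 0.53 to 0.58. TIMP4 and SERPINE2 were listed at 0 in all libraries.

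Of 9 tested partners of the plasminogen system, 5 were called higher and 1 lower, in G2/SCR as in G2/WT. PLAUR, the receptor that holds urokinase at the cell surface, was at 1433, 1371 and 1445 normalized counts in G2, 362, 404 and 393 in SCR, and 680.4 and 559 in WT (log2 fold change in G2/SCR 1.87, adjusted p = 7.8e-09). ANXA2, a membrane binding partner of plasminogen and PLAT, was at 34034 ± 1056 in G2, 8131 ± 481 in SCR and 11315 ± 2043 in WT (2.07, adjusted p = 1.5e-09). VTN, or vitronectin, a matrix protein that binds PLAUR, was at 897 ± 55.7, 81.8 ± 13.4 and 44.8 ± 1.59 (3.45, adjusted p = 2.6e-09). LRP1, the receptor that clears complexes of proteases with their inhibitors, was at 407 ± 69.7, 161 ± 31.2 and 133 ± 57 (1.33, adjusted p = 0.00037). PLG, which encodes plasminogen itself, was listed at 0 in every library.

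Among the ADAM proteases, membrane enzymes that shed the outer parts of surface proteins, 2 of 7 tested genes were called higher and 0 lower in G2/SCR. They were ADAM9, with 8106 ± 278 normalized counts in G2, 1376 ± 78.3 in SCR and 2118 ± 402 in WT (log2 fold change 2.56, adjusted p = 4.6e-10), and ADAM19, with 1224 ± 73.9, 183 ± 26.6 and 172 ± 30.7 (2.74, adjusted p = 6.6e-09). The 42 genes within 5 Mb of ADAM9, on chromosome 8, had a median of 0.17 in G2/SCR. ADAM9 and PLAT lie within 5 Mb of each other, so their neighbours are partly the same genes and not a separate observation. Of 17 ADAMTS proteases, secreted enzymes that cut proteoglycans and procollagens, 11 were called higher and 4 lower in G2/SCR, and 8 and 4 in both G2 comparisons. ADAMTS3, a procollagen peptidase, rose from 336 ± 24.5 in SCR and 165 ± 66.1 in WT to 2055 ± 114 in G2 (2.61, adjusted p = 9.2e-08), and ADAMTS4, an aggrecanase, from 1138 ± 63.3 and 1332 ± 27.1 to 2182 ± 45.0 (0.94, adjusted p = 2.1e-07). ADAMTS9, an enzyme for proteoglycans of the matrix, fell from 24323 ± 792 and 26570.2 ± 4149.6 to 10909 ± 254 (-1.16, adjusted p = 7.2e-08).

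Of 11 activators and other pericellular proteases tested, 6 were called higher and 1 lower in G2/SCR, 5 and 1 of them in both G2 comparisons. FURIN, the convertase that cleaves the precursors of membrane-type metalloproteinases, was at 3082 ± 130.2 normalized counts in G2, 1421 ± 68.7 in SCR and 1135 ± 59.4 in WT (log2 fold change in G2/SCR 1.12, adjusted p = 5.4e-08). CTSB, the lysosomal and secreted protease cathepsin B, was at 45199 ± 483, 21633 ± 212 and 23087 ± 16.9 (1.06, adjusted p = 1.7e-09). FAP, a surface peptidase best known from activated fibroblasts, had 471, 442 and 489 in G2, 38.8, 36.6 and 28.7 in SCR, and 3.72 and 1.99 in WT, where it was at the floor (3.72, adjusted p = 1.3e-07).

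**Figure D4:**
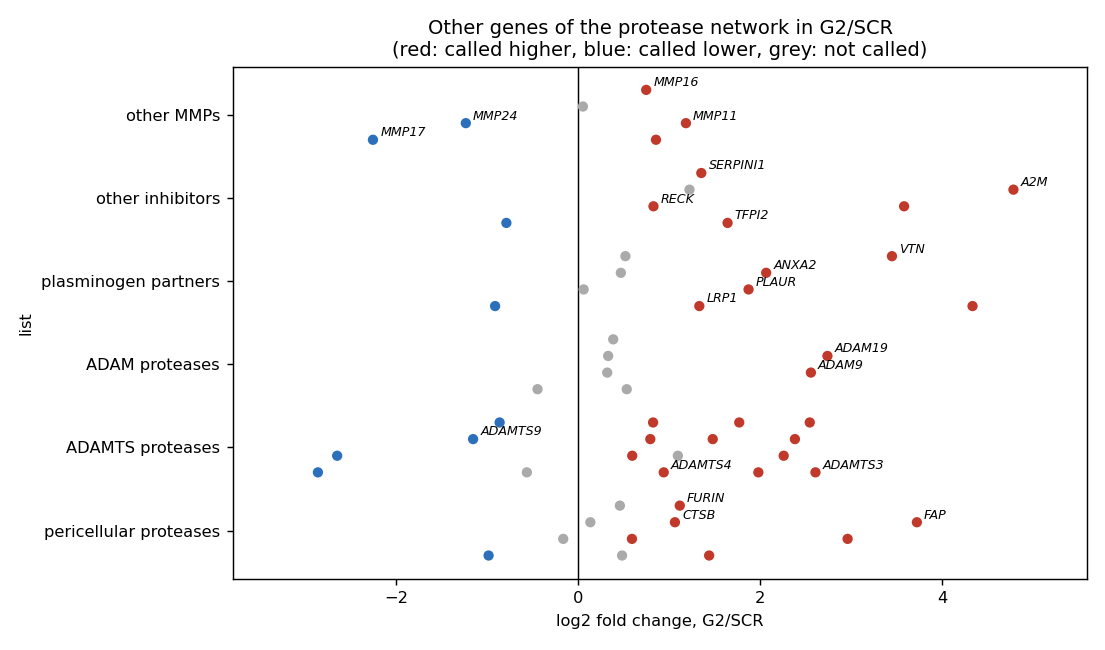
Log2 fold changes in G2/SCR (x axis) of the 57 tested genes of the 6 lists (y axis), with red points for genes called higher, blue for lower and grey for those not called, and names beside the genes described in the text. Red points, 32 in all, outnumber the 9 blue ones, and A2M, FAP and VTN lie farthest to the right among the named genes, with MMP17 farthest to the left.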

How the data were processed

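RNA-seq was performed in 8 libraries of SH-SY5Y cells (3 G2, 3 SCR, 2 WT), each assigned to its line by its label, with 0 columns left unassigned. Per the labels and the methods, the authors mapped paired reads of a stranded poly(A) library to hg38 with STAR 2.7.5a, counted them on FAST DB genes with featureCounts (Subread 1.5.0) and normalized them with DESeq2. The deposited signal is thus each gene's normalized count in a library, on a linear scale and with no correction for length. The strand setting and the treatment of reads matching several genes are not given in the sources used here, and the filter on intergenic expression was not repeated.

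Values were whole multiples of a step in each library (100.0% whole within a tolerance of 0.01), which gave back the counts. WT replicate 2 passed this check too, but its step of 0.993 was close to 1 and its recovery was not accepted. Count models were therefore run for G2/SCR only. Of small recovered counts, 71.3% to 75.6% per library were multiples of 3, so totals divided by 3 (19934798 to 27026916) were taken as fragments and a gene as at the floor when no library of a line exceeded 9 recovered counts. Floors cover counting error only.

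limma 3.58.1 (R 4.3.3, lmFit and eBayes with trend) was fitted to log2(value + 1), which understates changes of low genes, for the 18947 genes averaging 10 or more, with a mean per line. Calls needed a change of 1.5-fold or more and an unadjusted p no larger than 0.05. p-values measure the spread between libraries of a line, and adjusted p-values are Benjamini-Hochberg over all genes. DESeq2 1.42.0 and edgeR 4.0.16 on recovered counts were alternatives. They called 4974 and 5093 genes in G2/SCR, of which 4860 and 4937 were among the 5088 of limma. An edgeR run on counts divided by 3, added after the data were seen, called 5185. The scripts were tested on simulated data.

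Members and lists were chosen with earlier results of these data known. Named were the 9 members, the other membrane-bound metalloproteinases, TIMP4, RECK, SERPINE2, PLAUR, LRP1, PLG, FURIN, and of each list the 3 called genes that ranked first by p in G2/SCR. SPARC and ECM1 came from the search for alike genes, and overlapping genes from GENCODE. Levels per kb use the union of GENCODE exons. Promoters are from RefSeq. Some genes that the rule names are not reported here. A planned search of protein sequences was not run.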

Additional observations from a re-analysis of the deposited data

How the results depend on the processing

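TIMP1, PLAU and PLAT kept their direction and their calls in G2/SCR and G2/WT under all alternatives, as did TIMP2 except under a 2-fold threshold in G2/WT (log2 fold change 0.92, not called). Genes called in G2/SCR, G2/WT and SCR/WT numbered 3088, 3633 and 1723 among genes averaging 100 or more, and 2951, 3176 and 1491 under a 2-fold threshold, since fewer genes enter or pass. When 1 library at a time was left out, the genes called ran from 4790 to 5014 in G2/SCR, 5070 to 6145 in G2/WT and 2851 to 3543 in SCR/WT, and the members called from 4 to 7, 5 to 6 and 4 to 5. The 4 came without SCR replicate 3, where TIMP3, MMP2 and MMP9 lost their calls, and the cause was not tested. Other pathway genes called lower in G2/SCR fell to 5 under the 2-fold threshold, and those in SCR/WT to 3 among genes averaging 100 or more, 1 with libraries scaled to the same total and 1 under the 2-fold threshold. Scaling to the same total moved the median log2 fold change of all genes to -0.10 in G2/SCR, 0.19 in G2/WT and 0.28 in SCR/WT, and the values of members shift with it (TIMP2 in SCR/WT -0.07). Over the alternatives, log2 fold changes with no call when all libraries were used crossed 0 for MMP9 in G2/WT (-0.34 to 4.46) and SCR/WT (-3.72 to 1.08), MMP14 in G2/SCR (-0.085 to 0.44) and G2/WT (-0.32 to 0.16) and MMP15 in G2/SCR (-0.13 to 0.021). The other genes listed next changed sign in SCR/WT, where they had no call. With the same total, log2 fold changes turned positive for MMP16 (0.17), RECK (0.076), TFPI2 (0.27), ADAMTS9 (0.16), ADAMTS4 (0.048) and CTSB (0.18), and with TMM for TFPI2 (0.0065). With 1 library left out, values in SCR/WT ran across 0 for MMP16 (-0.61 to 0.40), MMP17 (-0.075 to 0.27), MMP24 (-0.0052 to 0.10), LRP1 (-0.12 to 0.77), TFPI2 (-0.054 to 0.036), ADAM19 (-0.088 to 0.28) and ADAMTS9 (-0.28 to 0.041). Rescaling the libraries moves all genes of a comparison by about the same amount. The reversals with the same total and with TMM follow that common shift. The cause of the other reversals was not tested.

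Replicate numbers showed no pairing of the libraries, as deviations of same-numbered libraries correlated at -0.03 to 0.04. Other pairs ran from -0.04 to 0.05. The highest was G2 replicate 2 with SCR replicate 1, which share a number in their library names. The next highest, G2 replicate 3 with SCR replicate 3 (0.04), share one too. So do G2 replicate 1 with WT replicate 1 (-0.03) and SCR replicate 2 with WT replicate 2 (0.01). A block by library names was not fitted. With the replicate number as a block, 5059, 5644 and 3057 genes were called in the 3 comparisons, and 7, 5 and 4 members.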
